A study of Mus musculus with 6 samples.

Results

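The Rbm genes encode proteins with RNA recognition motifs, and the 47 members described here are those of the 55376 genes in the tables whose symbol is Rbm followed by a digit or an x, or Rbms followed by a digit. Rbm8a and the pseudogenes named with -ps, 5 names in all, were left out. Of the 47 members, 45 are annotated as protein-coding and 2, Rbm46os and Rbm3os, as antisense RNAs. The libraries come from RNA immunoprecipitation sequencing (RIP-seq) of CPEB1, a protein that binds cytoplasmic polyadenylation elements (CPEs) in 3′ UTRs and controls the translation of the bound transcripts. RNA was recovered with an anti-CPEB1 antibody (CPEB1 IP), recovered with an IgG antibody as the control (IgG), or taken without precipitation (input), with 2 libraries for each of these 3 groups. All 6 libraries were made from sorted muscle stem cells (satellite cells, SCs) of C57BL/6 mice aged 3 months, freshly isolated, with no altered allele and no treatment in any group. SMART-seq2 libraries rest on amplified cDNA. The 2 libraries of a group come from independent experiments, so p-values rest on the spread between those experiments. For each gene that spread was estimated in part from the other genes, since 2 libraries a group give little of it. The mice behind each library are not given in the sources used here. A difference between CPEB1 IP and IgG is a difference in the make-up of the recovered RNA, since the amount of RNA recovered is not in the tables.

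An RNA recognition motif is a small fold that grips single-stranded RNA, and many Rbm proteins use it to guide pre-mRNA splicing. Others bring the m6A methyltransferase to its targets, hand nuclear RNAs to the exosome for decay, take part in making ribosomes in the nucleolus, or hold mRNAs stable in the cytoplasm. In muscle, Rbm20 sets the splicing of titin, Rbm24 drives the splicing of muscle exons, and Rbm38 controls mRNA stability and splicing during myoblast differentiation. The question put to the members was which of their own transcripts were more or less abundant in the CPEB1 IP than in the IgG control or the input.

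The sites below are shown because CPEs are the sequence CPEB1 is known to bind, and because the counts of these 9 members differed between CPEB1 IP and IgG. Each is the last canonical CPE (TTTTAT or TTTTAAT) in the longest annotated 3′ UTR, or the last match to another CPE motif where that UTR held no canonical one. The sequences were read from GENCODE transcripts on GRCm38 (mm10) as 30 bases of the sense strand, 5′ to 3′, with the CPE in capitals.
Rbm17: ttttgtgttttTTTTAATatagtataaaaa
Rbm18: tagccttctatTTTTAATaggaacctagag
Rbmxl1: taaattttctgTTTTAAGTttcccttcatt
Rbm6: tgctagaacttTTTTAAATaaacttttttt
Rbm14: ttcctggctcccTTTTATttttgtgcgcga
Rbm44: tctgtatgtatgTTTTATgtttataaactt
Rbm39: gacaggtcacgTTTTAATgtttcagaaacc
Rbm26: catgtttattatTTTTATattttgaaattt
Rbm4b: aatttagccttgTTTTATtccactcctccc
The first 5 belong to the members higher in CPEB1 IP and the last 4 to the members lower in it. On the minus strand lie the sites of Rbm17 (chr2:11585452-11585481), Rbm18 (chr2:36116201-36116230), Rbmxl1 (chr8:78505408-78505437), Rbm6 (chr9:107773572-107773601), Rbm14 (chr19:4801280-4801309), Rbm39 (chr2:156147761-156147790) and Rbm26 (chr14:105106776-105106805). On the plus strand lie the sites of Rbm44 (chr1:91170248-91170277) and Rbm4b (chr19:4765867-4765896). Each site is in a 3′ UTR and within 1 exon. Neither Rbmxl1 nor Rbm6 had a canonical CPE in its longest 3′ UTR, so the sites shown for them are of another motif.

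Counts on genes ran from 3270067 to 3314547 in input, from 1284716 to 1359052 in IgG and from 2564323 to 4941653 in CPEB1 IP. The IgG libraries had the lowest counts, and genes took 39.1% to 39.5% of the library total behind the authors' FPKM (counts divided by exon length and by the library total) in IgG, against 69.5% to 79.8% in the other 4 libraries. All 7 satellite cell markers examined, Pax7, Myf5, Vcam1, Cdh15, Itga7, Calcr and Sdc4, were detected in every library, with summed FPKM of 2053 to 2530 in input, 1044 to 1066 in IgG and 1810 to 2221 in CPEB1 IP. Markers of other cells were low: the 4 endothelial markers summed to 14.7 to 16.9 FPKM in input, the 4 haematopoietic ones to 12.1 to 17.6, the 4 fibro-adipogenic ones to 33.3 to 38.1 and the 4 myofibre ones to 24.1 to 25.8. In CPEB1 IP these sums were 18.7 to 19.8, 27 to 32.5, 66.8 to 70.7 and 43.9 to 56.9 FPKM, and in IgG 8.41 to 10.2, 13.7 to 17, 27.7 to 35.7 and 21.7 to 24.9. Of the haematopoietic markers, Ptprc was at 0 and 0.0132 FPKM in input, 0.471 and 0.204 in IgG and 0 and 0.0691 in CPEB1 IP, Lyz2 at 5.12 and 5.86, 5.15 and 8.96, and 22.6 and 24.7 FPKM, and Cd68 at 12.4 and 6.13, 7.59 and 7.78, and 4.34 and 7.61 FPKM. In such bulk libraries fewer cells of a type and less RNA per cell cannot be told apart.

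The Rbm genes were broadly expressed in fiSCs. In input, 36 members had a mean of at least 1 FPKM, 14 of them at least 10 FPKM, and 26 lay above 5.08 FPKM, the median of the 12207 genes at 1 FPKM or more. Together the 47 members took 0.414% to 0.416% of the counts on genes in input, 0.463% to 0.472% in IgG and 0.458% to 0.465% in CPEB1 IP. The highest was Rbm39, a splicing coactivator related to U2AF, with 93.7 and 96.9 FPKM in input, 58.3 and 65.7 in IgG and 87.5 and 81.3 in CPEB1 IP. Rbms1, a single-strand binding protein that acts on mRNA stability, had 51.2 and 62.6 FPKM in input, 43.3 and 43.5 in IgG and 93.3 and 86.3 in CPEB1 IP. On the FPKM scale its level was highest in CPEB1 IP and lowest in IgG with no overlap between groups, while after TMM scaling of the counts it was higher in IgG than in input, by 0.49 ± 0.14 on the log2 scale. Rbm3, the cold-inducible RNA-binding protein, had 29.1 and 40.9 FPKM in input, 14.1 and 15.8 in IgG and 25.2 and 27.7 in CPEB1 IP. Rbmxl1, a retrocopy-derived relative of Rbmx, had 23 and 34.2 FPKM in input, 9.99 and 9.67 in IgG and 24.8 and 26.8 in CPEB1 IP. Rbm7, the RNA-binding subunit of the nuclear exosome targeting (NEXT) complex, had 25.4 and 27.1 FPKM in input, 14.3 and 17.3 in IgG and 31.9 and 30.3 in CPEB1 IP. Among these 5 genes, neighbours in the order from Rbm3 to Rbm7 overlapped in their input values, while Rbm39 and Rbms1 stood apart from each other and from the rest.

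**Figure D1:**
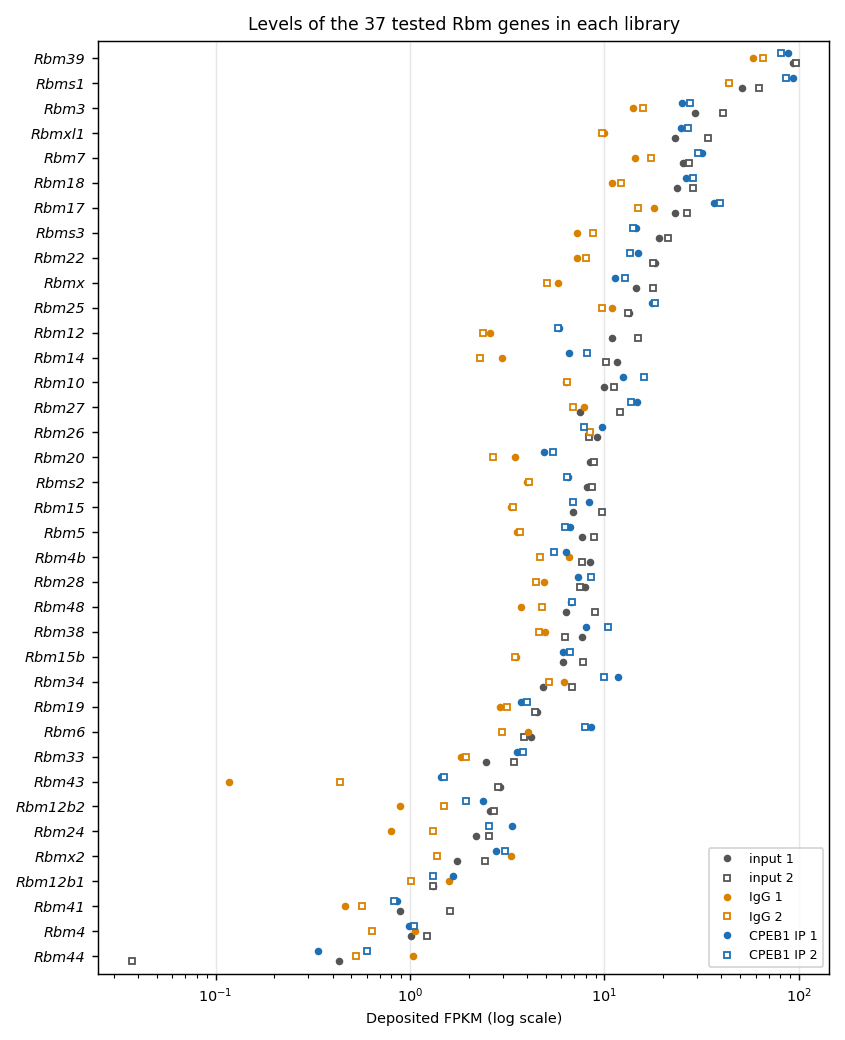
Deposited FPKM on a log scale (horizontal) of the 37 Rbm genes that entered the count tests (vertical, ordered by mean input FPKM), with 1 point for each of the 6 libraries. Rbm39 is at the top near 95.3 FPKM in input, Rbm44 is at the bottom at 0.235 FPKM, and the IgG points lie to the left of the CPEB1 IP points for most genes.

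At the low end, 6 members were listed at 0 in both input libraries, namely Rbmxl2, Rbm46, Rbm46os, Rbm47, Rbm11 and Rbm31y. Rbm11, a tissue-restricted splicing regulator, had 0 counts in both input and both CPEB1 IP libraries and 2 and 4 counts in IgG. In every comparison the same 10 members did not pass the filter on low counts, those 6 together with Rbm8a2, Rbm45, Rbm42 and Rbm3os, and their counts summed to between 13 and 31 in any library. For Rbm42, a splicing-associated protein with 0 to 4 counts in each library, 75.4% of its exon bases also belong to the annotated gene Gm21982, itself listed at 0 counts in all 6 libraries, so its level cannot be read from these counts. The same doubt touches Rbm4, with 60.5% of its exon bases inside Gm21992. The other 37 members were tested in each of the 3 comparisons.

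Against the IgG control, 5 of the 37 tested members were higher in CPEB1 IP, namely Rbm17, Rbm18, Rbmxl1, Rbm6 and Rbm14, and 4 were lower, namely Rbm44, Rbm39, Rbm26 and Rbm4b (edgeR quasi-likelihood test, adjusted p under 0.05 over all genes tested). Of all 12124 genes tested, 14.7% were higher and 18.7% lower, beside 13.5% and 10.8% of the members. The median log2 fold change of the 37 members was 0.08, beside -0.01 for all genes. These values compare compositions after TMM (trimmed mean of M values) scaling. Scaling to the library totals behind the FPKM moved the median of all genes to 0.84, gave 28 members higher and 0 lower, with 62.7% of genes higher and 4.53% lower, and turned Rbm39, Rbm26 and Rbm4b to positive log2 fold changes. DESeq2 gave 13 of 41 members higher (31.7%) and 1 lower (2.44%), beside 14% and 5.31% of all 18800 genes, at medians of 0.32 and -0.07. A fit without the filter on low counts gave 17 of 46 higher (37%) and 2 lower (4.35%), beside 8.36% and 5.56% of all 42045 genes, at medians of 0.42 and -0.90. Scale and gene set differ here from the main fit, so these shares are not read as a result about the members. Of the satellite cell markers 3 of 7 were higher in CPEB1 IP than in IgG, of the fibro-adipogenic ones 2 of 4, of the myofibre ones 1 of 4 and of the endothelial ones 0 of 4, and of the 3 tested haematopoietic markers 1 was higher and 2 lower; the part of these markers in the members' values was not tested.

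**Figure D2:**
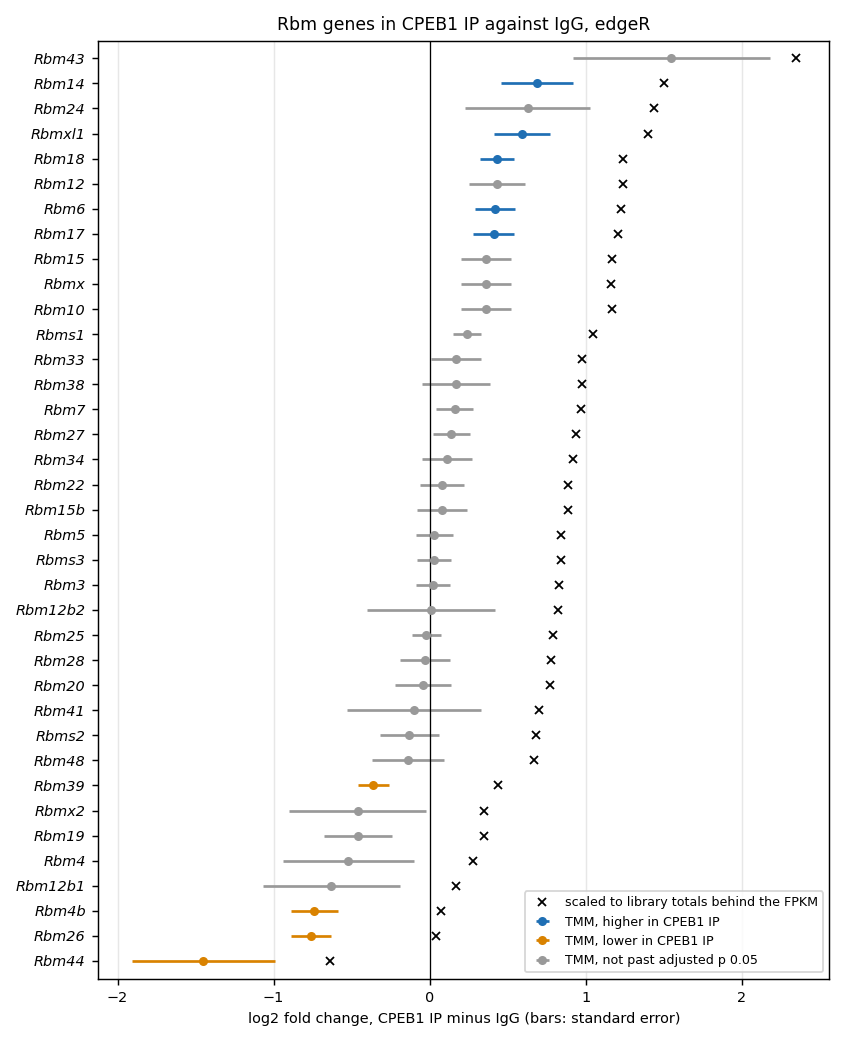
Log2 fold change between CPEB1 IP and IgG (positive where CPEB1 IP is higher, horizontal) for the 37 tested Rbm genes (vertical, ordered by value); dots are TMM-scaled edgeR estimates with bars of 1 standard error and n = 2 libraries a group, and crosses are the same genes scaled to the library totals behind the FPKM. The 5 blue genes were higher and the 4 orange genes lower, and every cross lies to the right of its dot, with only Rbm44 left of 0.

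Of the 14 tested splicing regulators, 3 were higher in CPEB1 IP than in IgG, 2 were lower and 9 did not pass. Rbm17 (also SPF45), which takes part in choosing the 3′ splice site, had 133 and 138 counts scaled to a common library size by TMM (CPM) in CPEB1 IP and 111 and 94 CPM in IgG. Both CPEB1 IP libraries were above both IgG libraries, by a log2 fold change of 0.41 ± 0.13 (SE, n = 2 a group; adjusted p = 0.0199 by edgeR). Rbm17 did not pass when IgG replicate 2 (adjusted p = 0.108), CPEB1 IP replicate 1 (0.0517) or CPEB1 IP replicate 2 (0.157) was left out. Rbm6, a relative of the tumour suppressor Rbm5 that regulates alternative splicing, had 180 and 162 CPM in CPEB1 IP and 145 and 109 CPM in IgG. Again the groups did not overlap, and its log2 fold change was 0.42 ± 0.13 (adjusted p = 0.0173 by edgeR), which did not pass when IgG replicate 2 (0.167) or CPEB1 IP replicate 1 (0.0833) was left out. Rbm5 itself had 156 and 141 CPM in CPEB1 IP and 140 and 149 CPM in IgG, groups that overlapped, at a log2 fold change of 0.03 ± 0.12.

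Rbmxl1 and Rbmx are close relatives that encode hnRNP G proteins, which regulate splice site choice. Rbmxl1 (chr8:78505269-78508898, minus strand) had 63.7 and 66.2 CPM in CPEB1 IP and 43.4 and 43.2 CPM in IgG. The values within each group were close and the groups far apart, at a log2 fold change of 0.59 ± 0.18 (adjusted p = 0.0131 by edgeR), although it did not pass when CPEB1 IP replicate 1 (0.0646) or CPEB1 IP replicate 2 (0.147) was left out. Of the 75-base windows along its transcript, 69.2% also occur in the pseudogenes Gm7324 or Gm7192, which held between 0 and 4 counts in any library, and how reads that map to several places were treated is not given in the sources used here. Rbmx, with no such shared window, had 74.9 and 80 CPM in CPEB1 IP and 63.9 and 57.6 CPM in IgG. Both CPEB1 IP values were the higher, and its log2 fold change of 0.36 ± 0.16 did not pass (adjusted p = 0.0874 by edgeR).

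Rbm39 and Rbm4b were the splicing regulators that were lower. Rbm39 had 923 and 824 CPM in CPEB1 IP and 1039 and 1203 CPM in IgG. The most abundant member was therefore lower in both CPEB1 IP libraries than in both IgG libraries, at a log2 fold change of -0.36 ± 0.10 (adjusted p = 0.00668 by edgeR), but it did not pass without IgG replicate 2 (adjusted p = 0.227), with DESeq2 (log2 fold change -0.08) or with all 6 libraries in 1 fit (adjusted p = 0.0697), and scaling to the library totals gave 0.44 and a fit without the filter on low counts 0.03. Rbm4b, one of the pair of Rbm4 paralogues that regulate splicing and translation, had 96 and 79.8 CPM in CPEB1 IP and 168 and 122 CPM in IgG. Its groups did not overlap, and the log2 fold change was -0.74 ± 0.15 (adjusted p = 7.89e-04 by edgeR), which did not pass with DESeq2 (-0.45, adjusted p = 0.0598) or without the filter on low counts (-0.34, 0.207) and was 0.07 under library totals. Fewer counts were assigned to its paralogue Rbm4, with 7.45 and 7.59 CPM in CPEB1 IP and 13.4 and 8.34 CPM in IgG. The log2 fold change of Rbm4, -0.52 ± 0.42, did not pass (adjusted p = 0.375 by edgeR). With most of its exon bases inside Gm21992, the level of Rbm4 stays in doubt and cannot be ranked against that of Rbm4b. Of the 75-base windows along the transcripts, 48.3% of Rbm4b and 66.1% of Rbm4 occur in other annotated genes. For Rbm4b these are Gm37206 (27.7%), Gm21992 and Rbm4, and for Rbm4 they are Gm21992 (66.1%) and Rbm4b. Some windows are thus common to the pair, and reads from those cannot be told apart.

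The other splicing regulators did not pass against IgG. Rbm25, which regulates splice site choice with U1, was the next in abundance, with 465 and 458 CPM in CPEB1 IP and 489 and 445 CPM in IgG. Its CPEB1 IP values lay between the IgG values, with a log2 fold change of -0.02 ± 0.09, which scaling to the library totals (0.79) and DESeq2 (0.27) turned positive. Rbm22, a component of the activated spliceosome, had 120 and 106 CPM in CPEB1 IP and 98.7 and 113 CPM in IgG, overlapping groups and a log2 fold change of 0.08 ± 0.14. Rbm10, a relative of Rbm5 that promotes exon skipping, had 70.4 and 86.8 CPM in CPEB1 IP and 60.8 and 62.9 CPM in IgG. Both CPEB1 IP values were the higher, but the log2 fold change of 0.36 ± 0.16 had an adjusted p of 0.0926 by edgeR, and 31.5% of its 75-base windows occur in other genes, among them Gm12799 and Gm15455. Rbm48, Rbm41 and Rbmx2 were of low abundance, at 31.5 and 30.4 CPM, 8.69 and 8 CPM, and 7.86 and 8.41 CPM in CPEB1 IP, and their log2 fold changes were -0.14 ± 0.23, -0.10 ± 0.43 and -0.46 ± 0.44. In all 3 the groups overlapped.

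Among the 7 tested cold-inducible, paraspeckle and other broadly expressed members, 2 were higher and none lower. Rbm18 (chr2:36116079-36136773, minus strand), a small single-motif protein whose function is little described, had 233 and 241 CPM in CPEB1 IP and 165 and 187 CPM in IgG. Its libraries agreed within each group and did not overlap between them, at a log2 fold change of 0.43 ± 0.11 (adjusted p = 0.00462 by edgeR), and it stayed past the threshold and higher in CPEB1 IP under all 10 alternatives run for this comparison. Of the 75-base windows along the Rbm18 transcript, 8.57% occur in Mrrf, which overlaps it on the other strand. Rbm14, a coactivator found in paraspeckles, had 38.9 and 46.1 CPM in CPEB1 IP and 30 and 23.5 CPM in IgG. Its log2 fold change was 0.69 ± 0.23 (adjusted p = 0.0248 by edgeR), and it did not pass when IgG replicate 2 (0.114) or CPEB1 IP replicate 2 (0.239) was left out. The Rbm14 transcript shares 17.9% of its 75-base windows with Gm21992 or Gm21844. Rbm3 had 180 and 190 CPM in CPEB1 IP and 170 and 196 CPM in IgG, a log2 fold change of 0.02 ± 0.11 with the groups overlapping. Rbm12 had 59.6 and 56.6 CPM in CPEB1 IP and 44.2 and 41.7 CPM in IgG. The groups were well apart, yet the log2 fold change of 0.43 ± 0.18 did not pass over all genes (adjusted p = 0.0737 by edgeR). The low-abundance paralogues Rbm12b1 and Rbm12b2 did not pass either, with log2 fold changes of -0.63 ± 0.44 (7.86 and 5.95 CPM against 12.6 and 8.34 CPM) and 0.01 ± 0.41 (12.4 and 9.84 CPM against 7.89 and 13.6 CPM), and each shares 48.8% to 57.5% of its 75-base windows with other genes, mainly with each other.

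The 6 members that act in m6A methylation and in nuclear RNA decay or export were Rbm15, Rbm15b, Rbm7, Rbm26, Rbm27 and Rbm33. Only Rbm26 of the 6 passed against IgG. Rbm26, a partner of the poly(A) tail exosome targeting (PAXT) connection, had 112 and 87.4 CPM in CPEB1 IP and 164 and 169 CPM in IgG. The IgG values were close to each other and above both CPEB1 IP values, at a log2 fold change of -0.76 ± 0.13 (adjusted p = 2.24e-04 by edgeR), the smallest adjusted p of any member in this comparison, yet scaling to the library totals gave 0.04 and leaving out the filter on low counts -0.36 (adjusted p = 0.148). Its paralogue Rbm27 had 148 and 133 CPM in CPEB1 IP and 133 and 121 CPM in IgG, and a log2 fold change of 0.14 ± 0.12. Rbm7 had 240 and 218 CPM in CPEB1 IP and 182 and 226 CPM in IgG, overlapping groups at a log2 fold change of 0.16 ± 0.12. The m6A adaptors Rbm15 and Rbm15b had log2 fold changes of 0.36 ± 0.16 (adjusted p = 0.093 by edgeR) and 0.08 ± 0.16, and Rbm33, an m6A-binding protein, had 0.17 ± 0.16.

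None of the 3 muscle splicing and stability factors passed against IgG. Rbm20 had 50.5 and 53.9 CPM in CPEB1 IP and 60 and 47.7 CPM in IgG, with the IgG values on either side of the CPEB1 IP values and a log2 fold change of -0.04 ± 0.18. Rbm24 had 17.8 and 12.9 CPM in CPEB1 IP and 7.1 and 12.1 CPM in IgG, a log2 fold change of 0.63 ± 0.40 (adjusted p = 0.244 by edgeR). Rbm38 had 35.2 and 43.7 CPM in CPEB1 IP and 36.3 and 34.9 CPM in IgG, with overlapping groups and a log2 fold change of 0.17 ± 0.22. The nucleolar factors did not pass either. Rbm19, needed for ribosomal RNA processing, had 29.8 and 30.8 CPM in CPEB1 IP and 39.5 and 44 CPM in IgG, lower in both CPEB1 IP libraries but with a log2 fold change of -0.46 ± 0.22 and an adjusted p of 0.111 by edgeR. Rbm28 (62.9 and 70.6 CPM against 71 and 66.7 CPM) had -0.03 ± 0.16 and Rbm34 (88.2 and 72.8 CPM against 78.9 and 68.2 CPM) had 0.11 ± 0.16, both with overlapping groups.

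Of the 3 Rbms genes, Rbms1 lay nearest the threshold, with 775 and 689 CPM in CPEB1 IP and 608 and 627 CPM in IgG. Both CPEB1 IP libraries were above both IgG libraries, but the log2 fold change of 0.24 ± 0.09 had an adjusted p of 0.0501 by edgeR. Rbms2 and Rbms3 had log2 fold changes of -0.13 ± 0.19 (44.3 and 42 CPM against 45.8 and 48.5 CPM) and 0.03 ± 0.11 (229 and 213 CPM against 193 and 239 CPM). The only germ cell member with enough counts to test was Rbm44, a germ cell protein of intercellular bridges, with 13 and 1 counts in input, 22 and 12 in IgG and 8 and 28 in CPEB1 IP. In CPM it had 3.31 and 5.74 in CPEB1 IP against 17.4 and 9.09 in IgG, a log2 fold change of -1.45 ± 0.46 (adjusted p = 0.0189 by edgeR), and it kept its call under 3 of the 10 alternatives. Rbm44 passed the filter on low counts through its IgG libraries, where it was high, so this call is not taken as support for a difference. It did not pass when IgG replicate 1 (adjusted p = 0.313), CPEB1 IP replicate 1 (0.18) or CPEB1 IP replicate 2 (0.063) was left out, and with DESeq2 it was 0.169.

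The study divides the FPKM of the CPEB1 IP by that of the IgG library of the same experiment, after adding 1 to both, and asks for a DESeq2 call beside this ratio. The ratio alone was above 2 in experiment 1 and in experiment 2 for 2 of the 47 members, Rbm18 and Rbmxl1, and both also passed with DESeq2 (adjusted p under 0.05). Of the 42045 genes with a count in these 4 libraries 4.41% met it, and of the 17387 with a mean over 0.5 FPKM 10.7%. Among genes that were also tested against IgG and had a mean over 0.5 FPKM, 1744 of 10993 met it. Of the tested members, 2 of 37 did. Rbm18 had ratios of 2.27 and 2.23, and Rbmxl1 had 2.34 and 2.61. Just outside lay Rbm17 (1.96 and 2.56), Rbms1 (2.13 and 1.96), Rbm12 (1.92 and 2.02), Rbm14 (1.89 and 2.77) and Rbm6 (1.87 and 2.26), each above 2 in 1 experiment and just under it in the other. The median ratios of the 37 tested members were 1.74 and 1.71, beside 1.53 and 1.61 for these 10993 expressed genes. Of the 10993 genes, 8846 had a ratio above 1 in both experiments, as had 32 of the 37 members. With FPKM recomputed on TMM library sizes, those medians were 1.11 and 1.05 for the members and 1.04 and 1.03 for the genes, and no member exceeded 2 in both experiments.

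**Figure D3:**
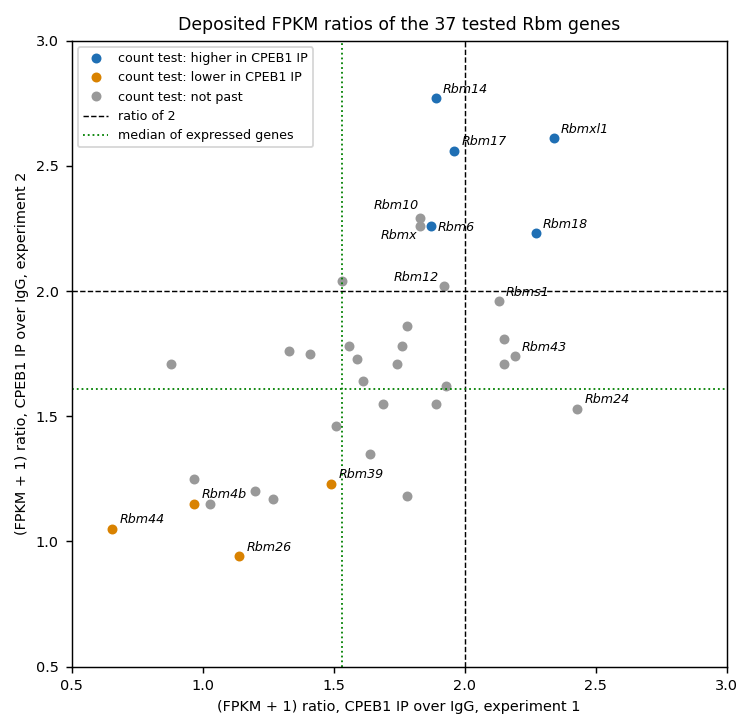
Quotient of CPEB1 IP and IgG, each as FPKM plus 1, in experiment 1 (horizontal) and experiment 2 (vertical) for the 37 tested Rbm genes, coloured by their call in the count test. Rbm18 and Rbmxl1 lie above 2 in both experiments (dashed lines), and the dotted lines mark the median ratios of expressed genes, 1.53 and 1.61.

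The comparison with input asks whether a transcript took a larger share of the CPEB1 IP than of the whole-cell RNA. It shares the CPEB1 IP libraries with the comparison above, so the values are set side by side only. In it, 9 of the 37 members were higher in CPEB1 IP, beside 17.0% of all 12171 genes tested, and 2 were lower, beside 15.8%. The 9 were Rbm17, Rbms1, Rbm33, Rbm34, Rbm7, Rbm6, Rbm25, Rbm27 and Rbm10, and the 2 were Rbm12 and Rbm20, with medians of 0.07 over members and 0.00 over all genes. Scaling to the library totals behind the FPKM moved the median of all genes to -0.20 and gave 6 members higher and 4 lower (16.2% and 10.8%), beside 10.1% and 22.9% of all genes.

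Rbm6 differed most from input, with 179 and 163 CPM in CPEB1 IP and 80.7 and 66.8 CPM in input. Both precipitated libraries had more than either input library, and the log2 fold change was 1.21 ± 0.15 (adjusted p = 8.15e-05 by edgeR). Rbm34, a nucleolar protein, had 87.9 and 73.2 CPM in CPEB1 IP and 32.9 and 41.8 CPM in input, a log2 fold change of 1.10 ± 0.18 (adjusted p = 6.53e-04 by edgeR). Rbms1 had 773 and 693 CPM against 385 and 424 CPM, a log2 fold change of 0.86 ± 0.13 (adjusted p = 3.33e-04 by edgeR), and Rbm17 had 132 and 139 CPM against 76.2 and 79.3 CPM, a log2 fold change of 0.81 ± 0.14 (adjusted p = 9.37e-04 by edgeR). In each of these 4 genes the groups did not overlap. That also held for members that did not pass, such as Rbm18 (232 and 242 CPM against 188 and 206 CPM) and Rbm5 (156 and 141 CPM against 163 and 169 CPM). The share of all genes without overlap was not counted. All 4 genes stayed higher under the 10 alternatives run. Rbm27, Rbm10, Rbm25, Rbm33 and Rbm7 had log2 fold changes of 0.74, 0.63, 0.61, 0.52 and 0.43. These calls were less steady: Rbm27 did not pass without CPEB1 IP replicate 1 (adjusted p = 0.0506), Rbm10 without CPEB1 IP replicate 2 (0.333), and Rbm25 (0.055 and 0.0749), Rbm33 (0.149 and 0.285) and Rbm7 (0.29 and 0.199) without either CPEB1 IP library, nor did Rbm33 without input replicate 1 (0.123). With DESeq2 Rbm10 (0.0641), Rbm33 (0.166) and Rbm7 (0.0569) did not pass, nor did these 3 under library totals (0.0886, 0.229 and 0.264), nor Rbm33 (0.08) and Rbm7 (0.0534) without the filter on low counts. Among the 9 were 3 of the 6 m6A and nuclear decay or export adaptors and 4 of the 14 tested splicing regulators.

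Rbm12, a protein of several RNA recognition motifs, was the lowest against input, with 59.4 and 56.9 CPM in CPEB1 IP and 101 and 123 CPM in input. Its groups lay far apart, at a log2 fold change of -0.95 ± 0.16 (adjusted p = 6.53e-04 by edgeR). Of the 75-base windows along its transcript, 32.4% occur in Gm28036 or Cpne1, both with 0 to 2 counts in any library. The titin splicing factor Rbm20 had 50.4 and 54.2 CPM in CPEB1 IP and 78.9 and 74.6 CPM in input, a log2 fold change of -0.55 ± 0.16 (adjusted p = 0.0172 by edgeR). It did not pass with DESeq2 (adjusted p = 0.0609), without CPEB1 IP replicate 1 (0.214) or without CPEB1 IP replicate 2 (0.117). Rbm24 (17.7 and 13 CPM against 10.5 and 11 CPM) had a log2 fold change of 0.48 ± 0.31, and Rbm38 (35.1 and 43.9 CPM against 30.2 and 22.4 CPM) had 0.60 ± 0.22 with an adjusted p of 0.0505 by edgeR. Of the other genes named against IgG, Rbm18, Rbmxl1, Rbm14, Rbm39, Rbm26, Rbm4b and Rbm44 did not pass against input, at log2 fold changes of 0.27, 0.06, -0.38, 0.02, 0.17, -0.27 and 1.17. The cell markers given above moved in the same comparison, with 3 of 4 endothelial, 2 of 3 fibro-adipogenic, 1 of 2 haematopoietic and 1 of 4 myofibre markers higher in CPEB1 IP than in input and 3 of 7 satellite cell markers lower, and their part in the members' values was not tested.

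**Figure D4:**
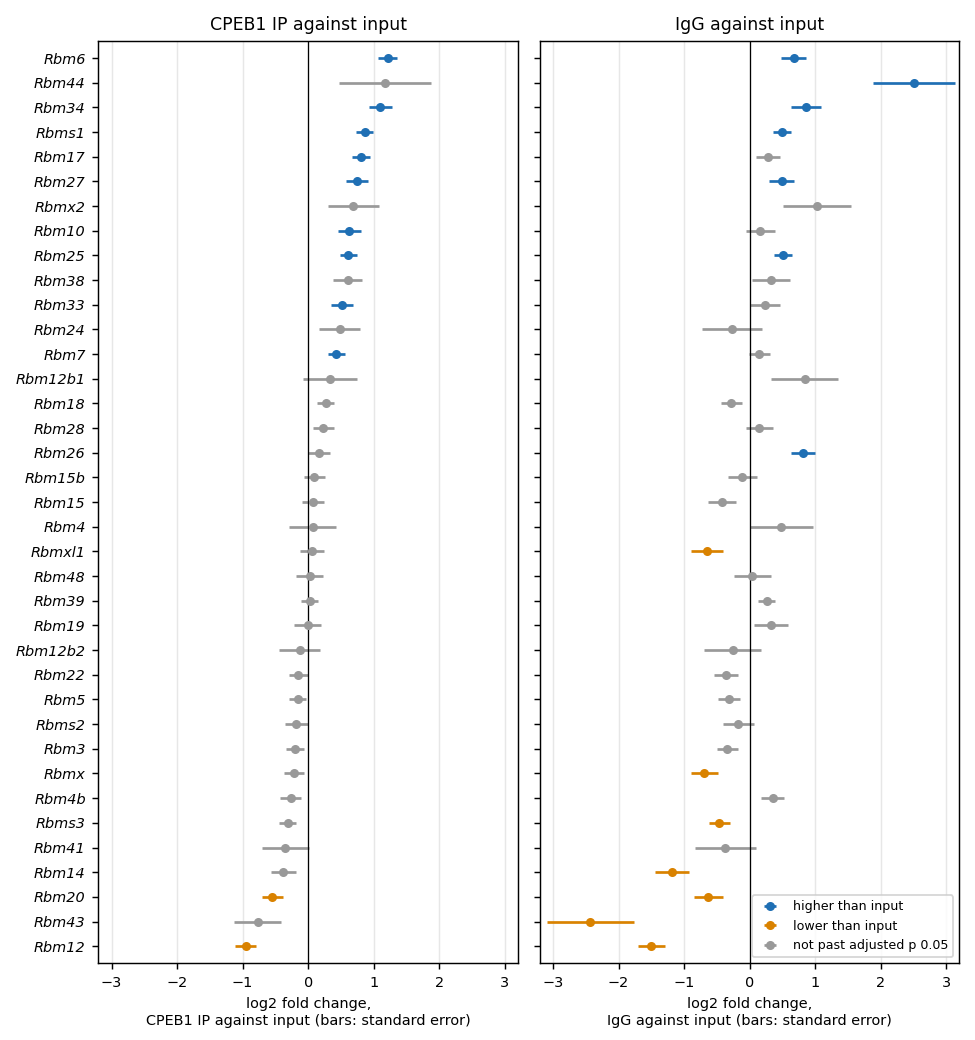
Log2 fold change against input of CPEB1 IP (left) and IgG (right) for the 37 tested Rbm genes, ordered by the left panel, with bars of 1 standard error and n = 2 libraries a group. Rbm6 at 1.21 and Rbm12 at -0.95 bound the called genes on the left, and Rbm44 at 2.51 and Rbm43 at -2.43 those on the right. On the right, Rbm44 passed the filter on low counts only through IgG and Rbm43 only through input.

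The IgG control also differed from input. In it, 7 members were higher, beside 21.4% of all 12980 genes tested, and 7 were lower, beside 19.4%, with medians of 0.15 over members and 0.03 over all genes. Higher in IgG were Rbm44, Rbms1, Rbm34, Rbm6, Rbm25, Rbm26 and Rbm27, and lower were Rbm43, Rbm12, Rbmxl1, Rbms3, Rbm14, Rbm20 and Rbmx. Scaling to the library totals behind the FPKM moved the median of all genes to -0.93, gave 1 member higher and 26 lower (2.7% and 70.3%), beside 4.59% and 59.7% of all genes, and made the log2 fold changes of Rbms1, Rbm34, Rbm6, Rbm25, Rbm26 and Rbm27 negative. Of the markers, 5 of 7 satellite cell genes were lower in IgG than in input, while 3 of 4 endothelial, 3 of 4 fibro-adipogenic, 2 of 3 haematopoietic and 1 of 4 myofibre genes were higher, and their part in the members' values was not tested. Rbm44 had 17.1 and 8.93 CPM in IgG and 4.14 and 0.317 CPM in input, a log2 fold change of 2.51 ± 0.63 (adjusted p = 0.00134 by edgeR). It did not pass without input replicate 2 (log2 fold change 1.63) or IgG replicate 1 (1.97). Rbm44 passed the filter on low counts only through IgG, where it was high, so this call is not taken as support for a difference. Rbm43, a little-described member, had 1 and 4 counts in IgG, 35 and 31 in input and 14 and 28 in CPEB1 IP. Its log2 fold change was -2.43 ± 0.66 (adjusted p = 0.0029 by edgeR), and it did not pass without IgG replicate 1 (-1.82). Rbm43 passed the filter on low counts only through input, where it was high, so this call is not taken as support for a difference either. In the CPEB1 IP it was 1.55 ± 0.63 above IgG (adjusted p = 0.0625 by edgeR).

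Rbm12 had 43.4 and 40.9 CPM in IgG and 108 and 131 CPM in input, a log2 fold change of -1.50 ± 0.21 (adjusted p = 4.21e-07 by edgeR), so it was lower than input with both antibodies. Rbm14 had 29.5 and 23.1 CPM in IgG and 66.6 and 52.5 CPM in input, a log2 fold change of -1.18 ± 0.26 (adjusted p = 3.85e-04 by edgeR). In the comparison of CPEB1 IP with input, its 38.8 and 46.4 CPM lay below the input values of 62.5 and 49.5 CPM, a difference of -0.38 ± 0.19 that did not pass (adjusted p = 0.136 by edgeR). Rbmxl1 had 42.6 and 42.4 CPM in IgG against 57.1 and 76.3 CPM in input (log2 fold change -0.65 ± 0.24, adjusted p = 0.025 by edgeR), while its CPEB1 IP and input values overlapped. That call was lost without input replicate 2 (0.239), IgG replicate 1 (0.117) or IgG replicate 2 (0.127). Rbm34 had 77.5 and 66.9 CPM in IgG and 35.1 and 44.3 CPM in input, a log2 fold change of 0.86 ± 0.23 (adjusted p = 0.00251 by edgeR), which stands beside its 1.10 in CPEB1 IP and did not pass without IgG replicate 1 (0.0691). Rbm6 and Rbms1 were likewise above input in IgG, by 0.67 ± 0.19 (adjusted p = 0.266 without IgG replicate 1) and 0.49 ± 0.14 (0.126 and 0.174 without either IgG library), and Rbm17 had 0.28 ± 0.19, which did not pass (adjusted p = 0.242 by edgeR). Of the remaining calls, Rbm25 (0.215 and 0.0838), Rbms3 (0.37 and 0.0621) and Rbm27 (0.304 and 0.139) did not pass without IgG replicate 1 or IgG replicate 2, Rbm27 also not without input replicate 1 (0.297), Rbm20 not without input replicate 1 (0.0503) or IgG replicate 2 (0.251), and Rbmx not without IgG replicate 2 (0.109). With DESeq2 the calls of Rbm44 (0.121), Rbm43 (0.107), Rbms1 (0.078), Rbmxl1 (0.124), Rbm34 (0.159), Rbm6 (0.186), Rbm25 (0.091), Rbm27 (0.463) and Rbm20 (0.0957) were lost. Without the filter on low counts those of Rbms1 (0.246), Rbm34 (0.0939), Rbm6 (0.189), Rbm25 (0.242) and Rbm27 (0.466) were lost.

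CPEs were common in the members' 3′ UTRs. A total of 9 motifs was searched on the sense strand. The canonical TTTTAT was found in the longest 3′ UTR of 60.1% of the tested genes and the canonical TTTTAAT in that of 34.5%. The others were TTTTACT (22.5% of tested genes), TTTTCAT (27%), TTTTAAAT (20.7%), TTTTAACT (9.13%), TTTTAAGT (11%), TTTTAATT (17.4%, always with the shorter TTTTAAT inside it) and TTTTAAAGT (5.5%). Of the 45 members with an annotated 3′ UTR, 38 (84.4%, exact Clopper-Pearson 95% interval 70.5 to 93.5) held at least 1 of them, and 36 (80%, 65.4 to 90.4) a canonical one. Among the 37 tested members the share was 89.2% (74.6 to 97), beside 74.3% (73.5 to 75.2) of the 10879 tested genes with a 3′ UTR. The longest 3′ UTRs of the tested members held 3.04 matches per kilobase, beside 2.07 for the tested genes, at median lengths of 1283 and 1285 bases. These intervals cover counting error only. Rbms3, with 23 matches in 5950 bases, and Rbm26, with 16 in 3031 bases, held the most, followed by Rbms1 with 13, Rbm12 with 12 and Rbm27 with 11.

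The members higher in CPEB1 IP than in IgG held a median of 2 matches (1 to 6), the members lower a median of 2 (1 to 16), and the 28 that did not pass a median of 5 (0 to 23). Their 3′ UTRs differed in length, with medians of 277, 788 and 1653 bases in the same order. Per kilobase the medians were 7.22, 2.59 and 2.89 matches. Rbm18 had 6 matches, all canonical, in 1736 bases, while Rbm6 had 1 in 123 bases and Rbm17 had 2 in 188 bases. The tested members with no match were Rbm43, Rbm19, Rbm10 and Rbmx2. Across the 37 members, which are genes of the same libraries and not independent replicates, the number of matches and the log2 fold change over IgG had a Pearson r of 0.03 and a Spearman rho of 0.15, given as a description. For matches per kilobase the values were -0.0049 and 0.15. A match is only the letters of a motif in an annotated UTR, and which 3′ end these cells use was not measured.

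**Figure D5:**
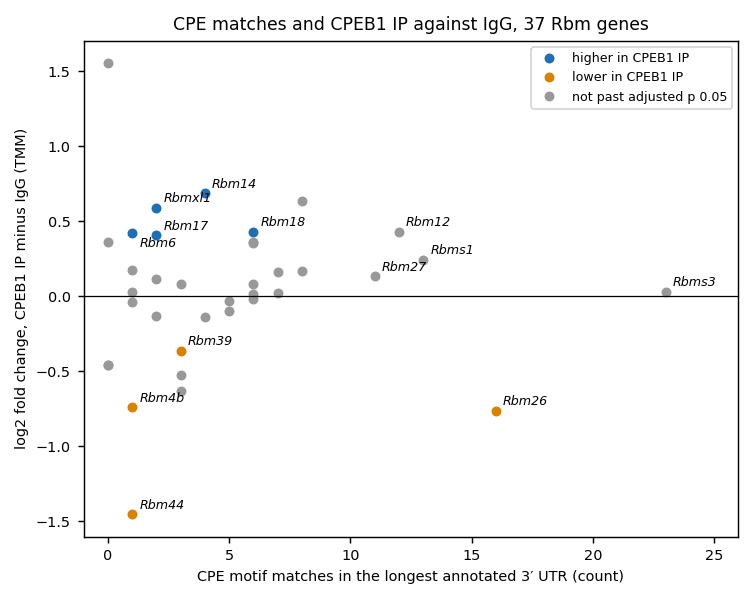
Number of CPE motif matches in the longest annotated 3′ UTR (horizontal) and log2 fold change from IgG to CPEB1 IP on the TMM scale (vertical) for the 37 tested Rbm genes, coloured by call. Rbm26, with 16 matches, was lower in CPEB1 IP, Rbms3, with 23, sat at 0.03, and the 5 genes higher in CPEB1 IP had 1 to 6 matches.

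The proteins that Rbm products work with gave a further set of 37 genes, of which 36 were tested against IgG. In CPEB1 IP, 6 of these were higher and 4 lower than in IgG, beside 14.7% and 18.7% of all genes tested, with a median log2 fold change of 0.08. Against input, 11 of 37 were higher and 2 lower in CPEB1 IP, beside 17.0% and 15.8% of all genes, and 4 of 36 were higher and 2 lower in IgG, beside 21.4% and 19.4%. Of the m6A writer complex, to which Rbm15 and Rbm15b belong, the adaptor subunit Zc3h13 (0.88 ± 0.14, adjusted p = 1.01e-04 by edgeR) and the ubiquitin ligase Cbll1 (0.70 ± 0.20, adjusted p = 0.0102) were higher, and the other 5, the methyltransferase subunits Mettl3 (-0.37 ± 0.32) and Mettl14 (-0.34 ± 0.29) among them, did not pass. Of the 6 nuclear exosome adaptors that act with Rbm7, Rbm26 and Rbm27, Zfc3h1 (-0.66 ± 0.13, adjusted p = 4.42e-04 by edgeR) and the nuclear poly(A)-binding protein Pabpn1 (-0.84 ± 0.21, adjusted p = 0.00475) were lower after TMM scaling, as Rbm26 was, and none was higher. In deposited FPKM neither was clearly lower. Zfc3h1 had 7.84 and 8.68 FPKM in IgG and 9.69 and 8.71 in CPEB1 IP. Pabpn1 had 6.09 and 7.01 FPKM in IgG and 7.1 and 5.93 in CPEB1 IP. Among spliceosome partners, Sf1 (0.25), Cdc5l (0.56) and Plrg1 (0.50) were higher and Aqr (-0.60) was lower, and the paraspeckle protein Nono (0.59) was higher. The lower value of Aqr also rests on TMM scaling, with 1.98 and 2.22 FPKM in IgG and 2.22 and 2.6 in CPEB1 IP. Cirbp, the other cold-inducible RNA-binding protein, did not pass against IgG (0.09 ± 0.24), like Rbm3, while against input it was lower in both CPEB1 IP (-1.02 ± 0.18) and IgG (-1.23 ± 0.25), where Rbm3 had -0.20 ± 0.14 and -0.34 ± 0.16 and did not pass.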

How the data were processed

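Counts and FPKM of 6 RIP-seq libraries, 2 in each of 3 groups assigned from the sample labels, were used, with 0 columns left aside. Reads of 75 nt were aligned by the authors to mm10 (HISAT), assigned to genes (featureCounts) and deposited as raw counts of each library, not normalized, beside the gene length in bases. They computed the deposited FPKM from the count, that length and a library total larger than the counts on genes, and the IgG libraries stand in tables of their own, so that group and table cannot be told apart. The submitters' processing notes also name StringTie; the strand setting and the treatment of reads mapping to several genes are not given in the sources used here.

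Raw counts of all genes were fitted in edgeR 4.0.16 (R 4.3.3), with filterByExpr, TMM and the quasi-likelihood test, 2 groups at a time, and p-values adjusted by Benjamini-Hochberg over all genes tested at 0.05. Standard errors are the log2 fold change divided by the square root of F. CPM values are TMM-scaled within each comparison. The scripts were checked on data with known differences. DESeq2 1.42.0, RLE factors, library totals, no low-count filter, a replicate block, all 6 libraries in 1 fit and leaving out each library were the alternatives. For the FPKM ratio they were pseudocounts of 0.1 and 5, TMM library sizes and crossed pairs. The study sets CPEB1 IP and IgG libraries of the same number against each other as 1 experiment, and over 16197 genes the departures of such a pair from their groups' averages correlated at -0.0068. Other steps ran in Python 3.11.15 (matplotlib 3.10.9, scipy 1.17.1, pandas 2.3.3, numpy 2.4.6).

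All 47 members matched the GENCODE annotation of GRCm38 with the same start and end. CPE motifs were those named in a supplementary sheet of the study, held here in shortened form. The members, their role groups, the partner genes and the markers were chosen with earlier results of these data known. Full values are given for members past the threshold against IgG (at most 20), the 5 highest in input, Rbm20, Rbm24, Rbm38, Rbm3, the paralogue sets, members over the FPKM ratio of 2 in both experiments, and the 5 called members with the largest change in each comparison with input. The value of 1 partner gene is not reported here.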

Additional observations from a re-analysis of the deposited data

How the results depend on the processing

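With 2 libraries a group, calls near the threshold moved with the settings, and scaling moved the direction of many. For CPEB1 IP against IgG, where 5 members were higher and 4 lower, DESeq2 gave 13 and 1, library totals behind the FPKM 28 and 0, no filter on low counts 17 and 2, and all 6 libraries in 1 fit 2 lower. Leaving out each library in turn, with the lone library left in its group assumed to vary like the other group, gave 2 to 5 higher and 3 lower every time (3 to 3). For CPEB1 IP against input, with 9 higher and 2 lower, DESeq2 gave 1 lower and library totals 4 lower, and leaving out a library 5 to 10 higher and 1 to 5 lower. For IgG against input, with 7 higher and 7 lower, DESeq2 gave 2 and 4, library totals 1 and 26, no filter 12 lower, and leaving out a library 1 to 8 higher and 3 to 8 lower. Members over an FPKM ratio of 2 in both experiments numbered 2, but 8 at a pseudocount of 0.1, 0 at one of 5, 0 under TMM library sizes, 5 in crossed pairs, and 7 or 10 with experiment 2 or 1 left out. Under library totals the sign turned for 13 members in CPEB1 IP against IgG, and the 8 of them that passed in either fit were Rbm39 (0.44), Rbm48 (0.67), Rbm28 (0.78), Rbms2 (0.68), Rbm25 (0.79), Rbm26 (0.04), Rbm4b (0.07) and Rbm20 (0.77). For IgG against input it turned for 18, and the 14 that passed in either fit were Rbm17 (-0.60), Rbms1 (-0.39), Rbm39 (-0.62), Rbm48 (-0.84), Rbm33 (-0.65), Rbm28 (-0.73), Rbm34 (-0.02), Rbm7 (-0.73), Rbm6 (-0.20), Rbm25 (-0.37), Rbm26 (-0.06), Rbm27 (-0.40), Rbm4b (-0.52) and Rbm10 (-0.72). For CPEB1 IP against input it turned for 7, none of them past the threshold in either fit. For CPEB1 IP against IgG it also turned for 6 members with DESeq2, of which Rbm25 (0.27) passed in either fit, and for 7 without the filter, of which Rbm25 (0.38) and Rbm39 (0.03) did. Other sign turns, in 0 to 7 members a setting, were of members that passed in neither fit. Library totals rescale each library as a whole. With them the median of all genes moved from -0.01 to 0.84 in CPEB1 IP against IgG. In IgG against input it moved from 0.03 to -0.93. Members whose sign did not turn moved as well, such as Rbm17 against IgG from 0.41 to 1.21, beside Rbm39 from -0.36 to 0.44. Beyond these values the cause of the turns was not tested. Over all alternatives of the values called in any comparison, 254 kept their call, 76 kept the direction but did not pass, and 10 turned. Over those of the values not called, 681 stayed without a call, 70 passed in the same direction and 15 passed in the other. The share of members with a CPE stayed within its interval under both other counts. Calls kept under all 10 alternatives were Rbm18 against IgG, Rbm17, Rbms1, Rbm12, Rbm34 and Rbm6 in CPEB1 IP against input, and Rbm12 and Rbm14 in IgG against input.

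Libraries of the same number share an experiment in CPEB1 IP and IgG, while for input they have a number in common and no stated pairing. The deviations of same-numbered libraries had correlations across 16197 genes of -0.022 between CPEB1 IP and input and 0.027 between IgG and input, and the replicate block left the members called at 5 and 4, 9 and 2, and 7 and 7. IgG libraries had the fewest counts on genes, and Rbm43 was the tested member lowest in them.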
